A study of Mus musculus with 14 samples.

Results

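The cytosolic ribosomal protein genes are the genes for the protein part of the ribosome that translates messenger RNA in the cytoplasm. They were taken as the genes on the array whose symbol has the form Rpl, Rps or Rplp followed by a number, leaving out the Rps6k kinases and named pseudogenes. The pattern found 83 genes, measured by 119 probes, among 16531 genes with a symbol on the array. Of these, 51 symbols begin with Rpl (large subunit) and 32 with Rps (small subunit). A further 11 of the 94 symbols of this form in the reference table had no matched probe and were not analysed here. Rps19bp1, which matched the pattern, encodes a binding partner of Rps19 rather than a ribosomal protein, and it is kept in the counts.

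RNA came from FDCPmix, a mouse bone marrow progenitor line that depends on interleukin-3 for growth. All samples share the line and a maintenance culture with horse serum and medium conditioned by IL-3 producing WEHI cells, and the fractions were stained and sorted by flow cytometry. The sorted fractions were Gr1+ cells, Kit-Gr1- cells, and Kit+Gr1- cells divided by their Sca1 level into Sca1hi and Sca1lo, with 3 arrays each, and 2 arrays held unfractionated cells. Kit is the receptor for stem cell factor, Gr1 is an antigen of granulocytes and Sca1 is the product of Ly6a. Here Kit+Gr1- stands for the mean of the Sca1hi and Sca1lo groups. The series' design text calls the replicates biological, and the results describe fractions of 1 cell line in 1 kind of culture.

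Each ribosomal subunit carries a set of proteins, most of them in equal numbers, and cells make them together. Their messages carry a run of pyrimidines at the 5′ end, the TOP motif, through which growth signals control their translation. A few genes have paralogues with restricted expression or with proteins that can take the parent's place on the ribosome. In blood, loss of 1 copy of genes such as Rps19 or Rpl5 causes Diamond-Blackfan anaemia, which affects the red cell lineage before others.

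Of the 83 genes, 63 matched the RefSeq promoter table (GRCm38.p6), which gives 250 bases before and 50 after an annotated start. The first start listed for each gene was used. A run of at least 8 bases of C or T within 25 bases of the start, on the strand of the gene, was present in 35 of the 63 (55.6%), against 24.0% of the 27025 genes of the table. The longest such run was 21 bases and the median run was 11 bases. The ETS core CCGGAAG, searched on both strands over all 300 bases, was present in 24 (38.1%), against 9.12% of all promoters. The YY1 core AAGATGG, also on both strands, was present in 9 (14.3%), against 6.48%. The letters TATAAA between 40 and 15 bases before the start were present in 1 (1.59%), against 2.22%. The motifs can share letters: the ETS core ends in the AAG with which the YY1 core begins, and on the opposite strand it holds pyrimidines that can lie in a run.

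The windows below run from 60 bases before the start to 15 bases from it onward, on the strand of the gene, with each pyrimidine run of 8 or more in capitals. Rps6 and Rpl5 are shown as genes that kept to the level of the whole set, and the others are the genes on which the results turn, with the parents of the paralogues Rps27l and Rpl22l1. The windows are chr4:86857353-86857427 (minus strand) for Rps6, chr5:107900468-107900542 (plus) for Rpl5, chr3:90213634-90213708 (minus) for Rps27 and chr9:66946026-66946100 (plus) for Rps27l. Those of Rpl22 and Rpl22l1 are chr4:152325666-152325740 (plus) and chr3:28805448-28805522 (plus). Rpl14 is at chr9:120571457-120571531 (plus), Rpl27a at chr7:109519135-109519209 (plus), Rpl7l1 at chr17:46782642-46782716 (minus) and Rpl3l at chr17:24727766-24727840 (plus).
Rps6: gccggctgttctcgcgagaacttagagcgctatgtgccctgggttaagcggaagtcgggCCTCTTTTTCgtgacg
Rpl5: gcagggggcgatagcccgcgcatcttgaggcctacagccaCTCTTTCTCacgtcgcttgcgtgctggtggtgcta
Rps27: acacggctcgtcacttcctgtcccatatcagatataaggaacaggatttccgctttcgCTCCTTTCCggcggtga
Rps27l: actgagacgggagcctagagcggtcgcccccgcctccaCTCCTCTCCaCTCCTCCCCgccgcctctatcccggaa
Rpl22: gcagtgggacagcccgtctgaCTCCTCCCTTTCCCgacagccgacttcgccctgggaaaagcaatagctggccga
Rpl22l1: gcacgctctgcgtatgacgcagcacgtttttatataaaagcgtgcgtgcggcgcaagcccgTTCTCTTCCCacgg
Rpl14: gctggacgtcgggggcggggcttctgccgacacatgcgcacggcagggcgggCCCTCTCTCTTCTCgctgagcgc
Rpl27a: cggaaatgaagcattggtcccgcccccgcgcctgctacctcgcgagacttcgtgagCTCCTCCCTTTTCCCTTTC
Rpl7l1: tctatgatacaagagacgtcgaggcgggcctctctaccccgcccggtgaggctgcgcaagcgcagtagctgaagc
Rpl3l: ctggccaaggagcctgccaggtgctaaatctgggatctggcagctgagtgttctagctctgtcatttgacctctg

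In these windows a run covers the start in Rps6, Rps27, Rpl14 and Rpl27a, follows it in Rpl22l1, and lies a short way upstream in Rpl5 and Rps27l. The run of Rpl22 lies further upstream, outside the 25 bases searched, and the windows of Rpl7l1 and Rpl3l hold none. A match is a description of letters, and a missing match says only that these letters are not in this window.

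On every array 43379 spots were read, and between 79.5% and 98.9% of them were well above background on the 12 sorted arrays. All 83 genes were well above background on all 14 arrays, and none of their probes was saturated. The log2 signals of 3 sorted arrays were compressed: the interquartile range was 2.37 for Sca1hi replicate 3, 3.42 for Sca1lo replicate 3 and 3.04 for Gr1+ replicate 3, against 4.17 to 4.92 on the other 9. These are the 3 compressed arrays named below. Unfractionated replicate 1, outside the comparisons, was compressed further, with a range of 1.78 against 4.82 for unfractionated replicate 2. Kit was lower in Kit-Gr1- than in Kit+Gr1- cells by limma (log2 difference -2.21 ± 0.22, adjusted p = 0.000562), and Ly6c1, which encodes part of the Gr1 antigen, was higher in Gr1+ cells (6.74 ± 0.71, adjusted p = 7.18e-05). Ly6a differed by 2.32 ± 0.31 between Sca1hi and Sca1lo cells with an adjusted p of 0.148, and it was higher in Gr1+ cells than in Kit+Gr1- cells (4.15 ± 0.27, adjusted p = 2.79e-06). The value after ± is limma's standard error, except where it is marked SD.

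The ribosomal protein genes were bright in every fraction, and the median of the 83 genes differed little between them. Before any scaling, the median log2 signal was 17.55, 17.43 and 17.59 on the Sca1hi arrays and 17.50, 17.41 and 17.50 on the Sca1lo arrays. It was 17.64, 17.41 and 17.37 on the Kit-Gr1- arrays and 17.27, 17.38 and 17.44 on the Gr1+ arrays. The 4 fractions overlapped, with Gr1+ replicate 1 the lowest and Kit-Gr1- replicate 1 the highest of the sorted arrays. The unfractionated arrays gave 17.54 and 17.12.

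**Figure D1:**
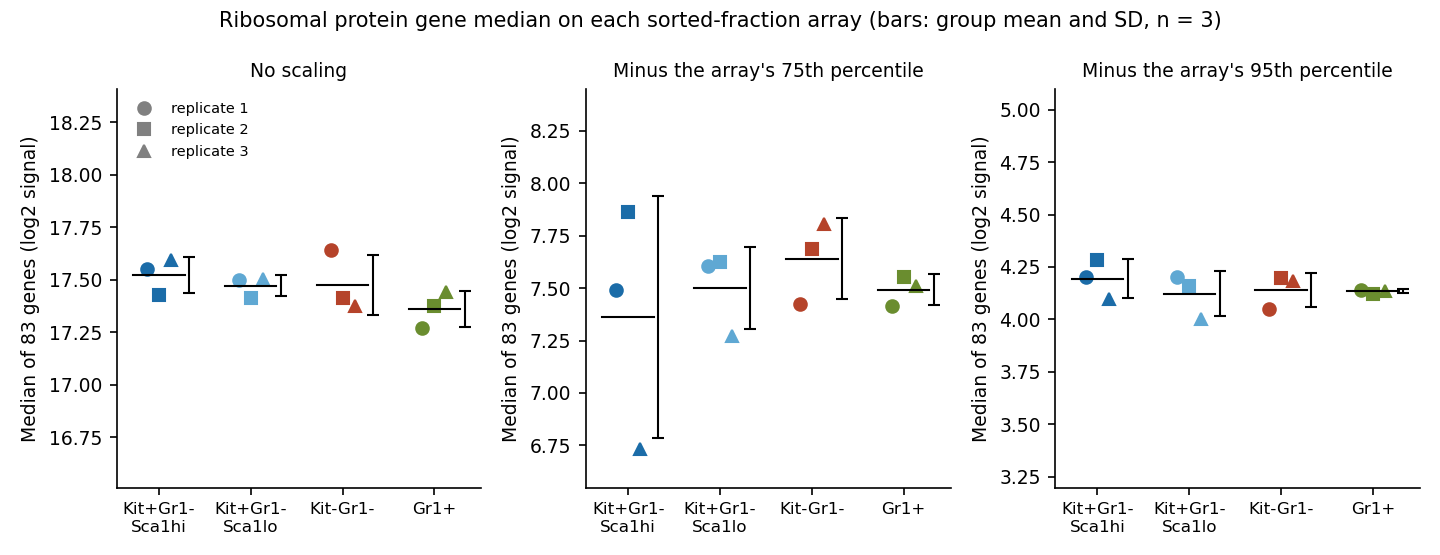
Median log2 signal of the 83 ribosomal protein genes on each of the 12 sorted-fraction arrays, before scaling (left), after subtracting each array's 75th percentile (middle) and its 95th percentile (right); symbols are replicates, lines are group means and bars are SD (n = 3). Sca1hi replicate 3 is the lowest array in the middle panel, at 6.73, and all fractions overlap in the left panel.

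Array signals need a common scale before fractions are compared, and for these genes the choice matters. The main scale subtracts each array's 75th percentile, so a value is the log2 signal above that point. On it the median of the 83 genes was 7.49, 7.86 and 6.73 in Sca1hi cells, 7.36 ± 0.58 (SD, n = 3), and 7.60, 7.62 and 7.27 in Sca1lo cells, 7.50 ± 0.20 (SD, n = 3). It was 7.43, 7.69 and 7.80 in Kit-Gr1- cells, 7.64 ± 0.19 (SD, n = 3), and 7.41, 7.55 and 7.51 in Gr1+ cells, 7.49 ± 0.07 (SD, n = 3). Sca1hi replicate 3, the most compressed sorted array, stood apart from the others. Against the 95th percentile instead, the group means were 4.19 ± 0.09, 4.12 ± 0.11, 4.14 ± 0.08 and 4.13 ± 0.01 in the same order (SD, n = 3), and no fraction stood apart.

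Between Kit-Gr1- and Kit+Gr1- cells no ribosomal protein gene was called, a call being a Benjamini-Hochberg adjusted p under 0.05 over 31254 genes and a difference of at least 2-fold by limma. Of all genes 0.346% were called. At an unadjusted p under 0.05, again 0 of the 83 passed, against 6.03% of all genes, and an adjusted p under 0.05 at any size was reached by 0, against 0.378%. For no member did the Kit-Gr1- arrays and the Kit+Gr1- arrays stand wholly apart, against 5.93% of all genes. The fitted differences were highest for Rpl30 at 0.36, Rpl4 at 0.35, Rpl22l1 at 0.33, Rpl39 at 0.30 and Rpl13a at 0.30. They were lowest for Rpl3l at -0.58, Rpl39l at -0.40, Rpl21 at -0.13, Rpl7l1 at 0.10 and Rpl31 at 0.11. Their median was 0.21, beside -0.23 over all genes tested. It was 0.21 for the 46 large-subunit genes that are not paralogues and also 0.21 for the 30 small-subunit genes. Of the 83, 80 were higher in Kit-Gr1- cells, beside 30.4% of all genes. This direction rested on the scale: the median was -0.02 with the 95th percentile or without scaling and -0.01 after quantile normalization. Within slides 1, 2 and 3 it was -0.15, 0.08 and -0.02, and without the 3 compressed arrays it was 0.00. The SD of the array medians within fractions was 0.32 on the main scale, more than any of the 4 median differences. Without Sca1hi replicate 3 it was 0.18, and the 4 medians were then 0.05, -0.11, 0.15 and 0.16. In bulk samples, more cells of a type and more RNA per cell cannot be told apart.

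Between Gr1+ and Kit+Gr1- cells again no ribosomal protein gene was called, where limma called 4.33% of all genes. With no limit on size, 1 of 83 passed an adjusted p under 0.05 (7.59% of all genes), and 3 passed an unadjusted p under 0.05 (16.1% of all genes). The gene that passed was Rpl21. All Gr1+ arrays lay above all Kit+Gr1- arrays for 1 gene, Rpl3l (6.13% of all genes), and below them for 1, Rpl21 (4.01%). The differences were highest for Rpl3l at 1.03, Rplp2 at 0.21, Rplp1 at 0.21, Rps18 at 0.20 and Rps27 at 0.19. They were lowest for Rpl21 at -0.62, Rpl14 at -0.47, Rps27l at -0.37, Rpl7l1 at -0.35 and Rpl27a at -0.28, so that 2 paralogues were among the lowest. The median difference was 0.06, beside -0.04 over all genes, and 59 of the 83 were higher in Gr1+ cells, beside 44.1% of all genes. Without scaling the median was -0.14, and with slide as a block it was -0.19. Within slides 1, 2 and 3 it was -0.11, -0.06 and -0.39. Leaving out Sca1hi replicate 3 gave -0.11 and leaving out Sca1hi replicate 2 gave 0.19.

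Between Kit-Gr1- and Gr1+ cells, 1 ribosomal protein gene was called, the muscle paralogue Rpl3l, where 4.1% of all genes were called. At any size 1 gene reached an adjusted p under 0.05 (5.52% of all genes), and at an unadjusted p under 0.05, 4 passed, beside 14.9% of all genes. The differences were highest for Rps27l at 0.65, Rpl14 at 0.62, Rpl22l1 at 0.51, Rpl21 at 0.49 and Rpl27a at 0.46. They were lowest for Rpl3l at -1.61, Rpl39l at -0.15, Rps28 at -0.01, and Rplp1 and Rps9, both at 0.03. The median difference was 0.15, beside -0.20 over all genes, and 80 of the 83 were higher in Kit-Gr1- cells, beside 33.5% of all genes. All 3 Kit-Gr1- arrays stood above all 3 Gr1+ arrays for 13 genes (13.7% of all genes did so) and below them for 1 (14.1%). The median was 0.12 without scaling, 0.01 with the 95th percentile and -0.10 after cyclic loess. Within slides 1, 2 and 3 it was -0.04, 0.15 and 0.38.

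Between Sca1hi and Sca1lo cells no gene of any kind was called (0% of all genes). At an unadjusted p under 0.05, 0 of the 83 ribosomal protein genes passed, beside 0.845% of all genes. The arrays stood wholly apart for 1 gene, Rpl21, higher in Sca1hi cells by 0.26 (3.2% of all genes stood apart either way). After Rpl21 the highest differences were those of Rpl3l at 0.13 and Rpl4 at 0.01. The lowest were those of Rpl39l at -0.32, Rpl6 at -0.31 and Rps19bp1 at -0.28. The median difference was -0.14, beside -0.02 over all genes, and 4 of the 83 were higher in Sca1hi cells, beside 47.3% of all genes. It turned to 0.16 when Sca1hi replicate 3 was left out and was -0.40 without Sca1hi replicate 2. With the 95th percentile it was 0.07. Slide 1 gave -0.13 and slide 4, which holds both compressed Kit+Gr1- arrays, gave -0.54.

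**Figure D2:**
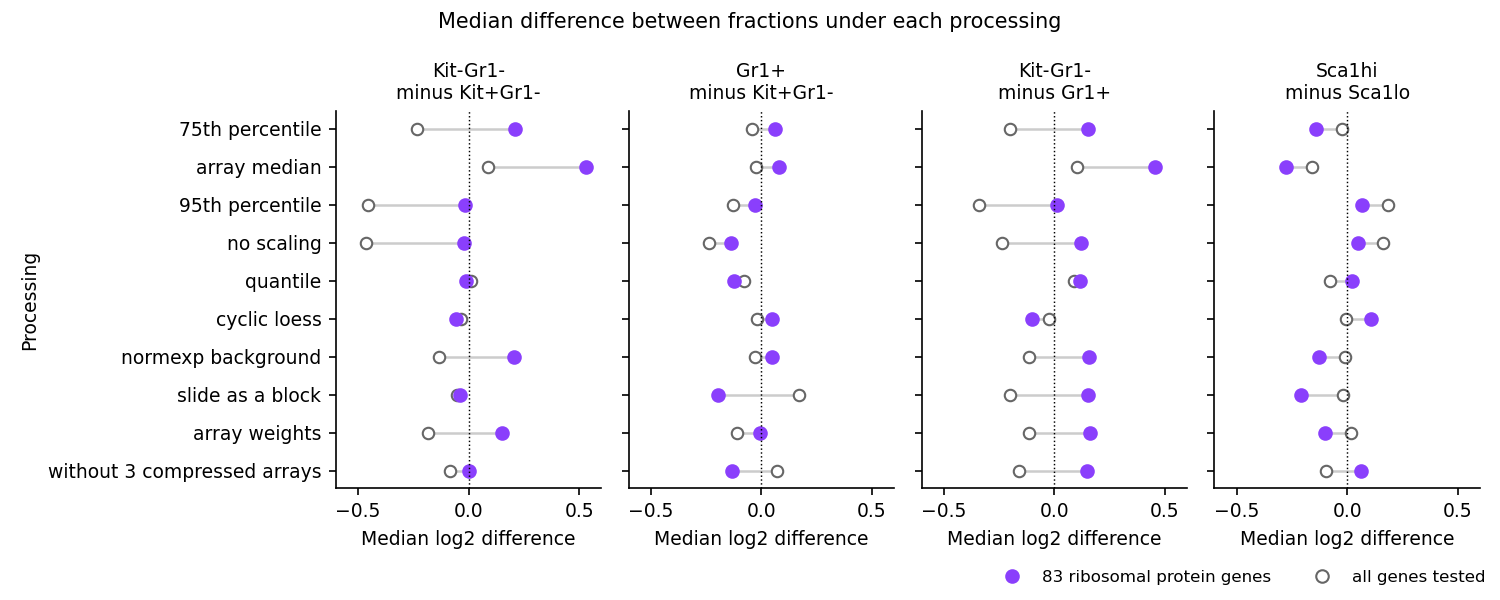
Median log2 difference of the 83 ribosomal protein genes (filled) and of all genes tested (open) in each of the 4 comparisons, under 10 ways of processing. The filled points lie on both sides of 0 in every comparison, from -0.06 to 0.53 for Kit-Gr1- minus Kit+Gr1- cells.

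Since the shift of the whole set moved with the scale, each gene was also taken relative to the median of the 83 genes on its array. This asks whether single genes depart from the rest of the set. On this scale a value depends on the probe, so only its movement between fractions is read. The range over the 4 fraction means had a median of 0.11 over the 83 genes, and 71 of them (85.5%) had a range under 0.2. In 10 it reached 0.3, in order from the largest: Rpl3l, Rpl21, Rpl39l, Rpl14, Rps27l, Rpl7l1, Rpl27a, Rpl22l1, Rpl31 and Rps19bp1. Just below this limit lay Rpl30, at 0.24, whose SD within fractions was 0.25. The members' SD within fractions had a median of 0.08. Subtracting the set's own median removes the shift that its genes share, and ranges of other genes are not reported here. The small ranges are therefore not shown to be particular to this set.

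Small-subunit genes moved little on this scale. All 30 of them, leaving out Rps27l and Rps19bp1, had ranges under 0.2, the lowest being 0.02 for Rps14, with a median of 0.10. Of 43 large-subunit genes outside the P stalk, 37 were under 0.2 and 4 reached 0.3, namely Rpl21, Rpl14, Rpl27a and Rpl31, again with a median of 0.10. Among the 6 paralogues 5 reached 0.3, with a median of 0.47 and Rpl36al as the exception at 0.15. The difference between these groups was not tested. The 35 genes with a pyrimidine run near the start had a median range of 0.11, with 28 under 0.2, and the 28 genes with a promoter entry and no such run had a median of 0.10, with 25 under 0.2.

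Departure went with signal. The scanner file combines a low-gain and a high-gain scan, and 74 genes were read from the low-gain scan on all 12 sorted arrays, with mean log2 signals from 14.8 to 18.8. Of these 2 reached a range of 0.3, Rps27l and Rpl22l1. The other 9 were read from the high-gain scan, with mean log2 signals from 6.84 to 13.9, and 8 of them reached 0.3. The exception was Rps19, at 0.04. Across the 83 genes the Spearman correlation of range with mean signal was -0.45, given as a description of genes measured on the same arrays. The part of signal and scan in the ranges was not tested.

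**Figure D3:**
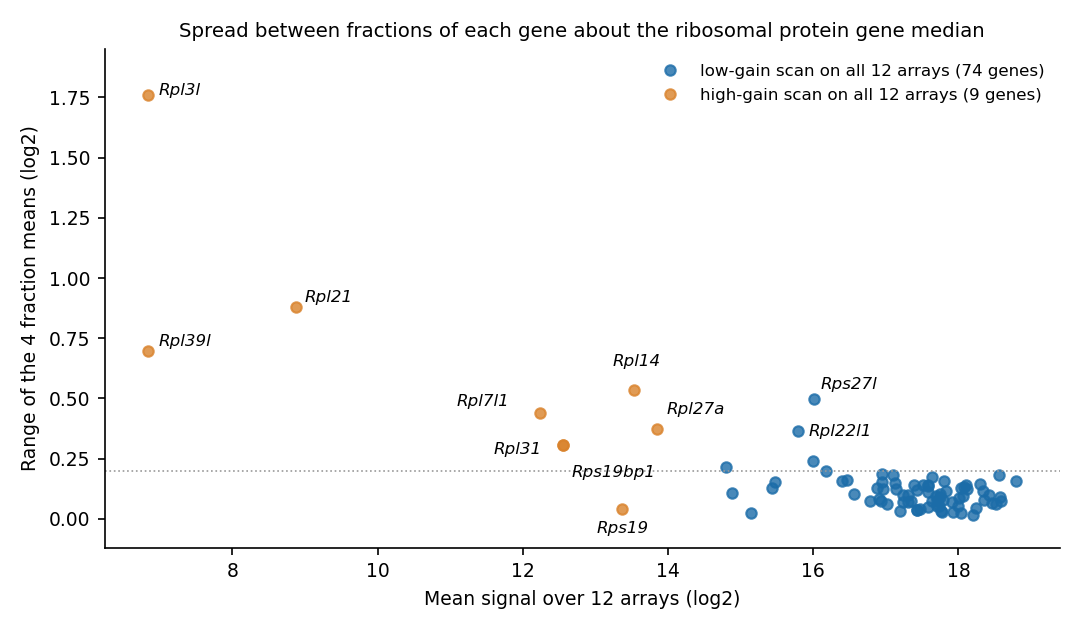
Range of the 4 fraction means of each ribosomal protein gene, relative to the median of the 83 genes (vertical, log2), against its mean log2 signal over 12 arrays (horizontal), coloured by the scan its values came from. Most points lie under the dotted line at 0.2, and the labelled genes reach 0.3 or, for Rps19, are from the high-gain scan.

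The P stalk, formed by Rplp0, Rplp1 and Rplp2, recruits elongation factors to the large subunit. Relative to the set, Rplp0 was 0.63, 0.59 and 0.60 in Sca1hi, 0.70, 0.61 and 0.58 in Sca1lo, 0.65, 0.66 and 0.70 in Kit-Gr1- and 0.81, 0.70 and 0.68 in Gr1+ cells. The Gr1+ arrays lay at the upper end and overlapped the others. Its difference between Gr1+ and Kit+Gr1- cells was 0.11 ± 0.05 (limma, adjusted p = 0.239). Rplp1 differed by 0.15 ± 0.09 (limma, adjusted p = 0.534) and Rplp2 by 0.12 ± 0.06 (limma, adjusted p = 0.347). The Rplp2 spot was marked as an outlier on Sca1lo replicate 2, so its value rests on 11 of the 12 arrays.

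Several small- and large-subunit proteins have known roles in blood or in stress signalling. Rps6, the substrate of S6 kinases, ranged from -0.30 to -0.20 in Sca1hi, -0.51 to -0.26 in Sca1lo, -0.42 to -0.16 in Kit-Gr1- and -0.52 to -0.26 in Gr1+ cells, with all fractions overlapping. Rpl5 and Rpl11, which bind 5S ribosomal RNA and can restrain Mdm2, had ranges over the fraction means of 0.05 and 0.03. Rps19, often mutated in Diamond-Blackfan anaemia, had a range of 0.04, and its arrays spanned -4.19 to -3.98. Rps27a, made as a fusion with ubiquitin, differed by 0.12 ± 0.06 between Gr1+ and Kit+Gr1- cells (limma, adjusted p = 0.294).

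Relative to the set, 4 genes were lower in Gr1+ than in Kit+Gr1- cells by limma, at an adjusted p under 0.05. Of all genes 5.82% were lower on this scale, and 10.6% differed either way. The 4 were Rps27l, Rpl14, Rpl27a and Rpl7l1, and no gene of the set was higher. Compared with Kit-Gr1- cells, Rps27l, Rpl14 and Rpl22l1 were lower in Gr1+ cells (3.22% of all genes were lower in this way, and 7% differed either way). As shares of the 83 these are 4.82% and 3.61%, near the 5.82% and 3.22% of all genes in the same direction, and what follows describes single genes. Both comparisons use the same Gr1+ arrays. No gene of the set passed between Kit-Gr1- and Kit+Gr1- cells, where 0.659% of all genes did, or between Sca1hi and Sca1lo cells, where 0% did. At an unadjusted p under 0.05 the numbers by limma were 0 (5.84% of all genes) and 1 (1.33%). None of these differences reached 2-fold.

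Rps27l, a paralogue of Rps27 known as a p53 target, kept its departure in every fit that left out an array. Relative to the set it was -1.40, -1.54 and -1.28 in Sca1hi, -1.34, -1.34 and -1.27 in Sca1lo and -1.28, -1.34 and -1.25 in Kit-Gr1- cells. In Gr1+ cells it was -1.76, -1.94 and -1.67, below all 9 other sorted arrays. The difference from Kit+Gr1- cells was -0.43 ± 0.08 by limma, 1.35-fold lower, with an adjusted p of 0.00166, and from 0.0014 to 0.017 when each array was left out in turn. Within slides 1, 2 and 3 it was -0.39, -0.61 and -0.13. From Kit-Gr1- to Gr1+ cells the gap was 0.50 ± 0.09 (limma, adjusted p = 0.00235), and 0.48, 0.60 and 0.42 within slides. On the main scale, which carries the shift of the whole set, the difference from Kit+Gr1- cells was -0.37 ± 0.22 (limma, adjusted p = 0.536).

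Rpl14 encodes a large-subunit protein. It was -3.81, -3.93 and -3.58 in Sca1hi, -3.88, -3.87 and -3.58 in Sca1lo and -3.81, -3.94 and -3.76 in Kit-Gr1- cells, relative to the set. On the Gr1+ arrays it was -4.29, -4.43 and -4.20, again below the 9 others. The difference from Kit+Gr1- cells was -0.53 ± 0.11 (1.45-fold lower, limma, adjusted p = 0.00422), and it passed in all 12 fits that left out an array. Within slides 1, 2 and 3 it was -0.44, -0.56 and -0.28. Against Kit-Gr1- cells the gap of 0.47 ± 0.12 (limma, adjusted p = 0.0331) passed in 7 of the 12 fits. It failed without Gr1+ replicate 1 (adjusted p = 0.0701) or 2 (0.174), and without Kit-Gr1- replicate 1 (0.103), 2 (0.0501) or 3 (0.138). Leaving out a Kit+Gr1- array changes the p but cannot change this gap. Of the fits that left out an array of the compared fractions, only that without Gr1+ replicate 3 passed (limma, adjusted p = 0.0401).

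Rpl22l1, whose protein can take the place of Rpl22, was -1.45, -1.80 and -1.70 in Sca1hi, -1.55, -1.70 and -1.62 in Sca1lo and -1.49, -1.50 and -1.57 in Kit-Gr1- cells. The Gr1+ arrays were close together at -1.88, -1.89 and -1.89, below the other 9. The gap to Kit-Gr1- cells was 0.37 ± 0.09 (1.29-fold, limma, adjusted p = 0.0191) and 0.39, 0.39 and 0.32 within slides 1, 2 and 3. It passed in 9 of 12 fits that left out an array, and failed without Gr1+ replicate 2 (adjusted p = 0.0724), Kit-Gr1- replicate 1 (0.0694) or Kit-Gr1- replicate 2 (0.0696). Of the fits that left out an array of the compared fractions, it passed by limma without Kit-Gr1- replicate 3 (adjusted p = 0.0454) or Gr1+ replicates 1 (0.0465) or 3 (0.047). The other fits that passed left out a Kit+Gr1- array, which cannot change this gap. Without the 3 compressed arrays the gap was again 0.37, with an adjusted p of 0.0655. The difference from Kit+Gr1- cells was -0.25 ± 0.08 (limma, adjusted p = 0.0548).

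Rpl27a, a large-subunit gene, was -3.77, -3.88 and -3.90 on the Gr1+ arrays, against -3.69 to -3.31 on the other 9. The difference from Kit+Gr1- cells was -0.34 ± 0.10 (limma, adjusted p = 0.0395) and -0.31, -0.32 and -0.36 within slides. This call was fragile to single arrays: it passed in 3 of the 12 fits, and adjusted p ran from 0.0153 to 0.171, the highest without Gr1+ replicate 2. It failed without any 1 of the Gr1+ arrays, Sca1hi replicates 1 and 2, the Sca1lo arrays or Kit-Gr1- replicate 3, with differences from -0.38 to -0.31. Of the fits that left out an array of the compared fractions, only that without Sca1hi replicate 3 passed (limma, adjusted p = 0.0309). Rpl7l1, a paralogue of Rpl7, was -5.66, -5.51 and -5.34 in Gr1+ cells against -5.28 to -4.89 on the other 9 arrays. Its difference was -0.41 ± 0.12 (limma, adjusted p = 0.048), and -0.39, -0.48 and -0.20 within slides. It passed in 2 of the 12 fits, those without Gr1+ replicate 3 or Sca1lo replicate 1, and adjusted p was 0.233 without Gr1+ replicate 1. Whether the Rpl7l1 protein is part of the ribosome was not tested. Rpl31 differed by -0.28 ± 0.10 (limma, adjusted p = 0.11).

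**Figure D4:**
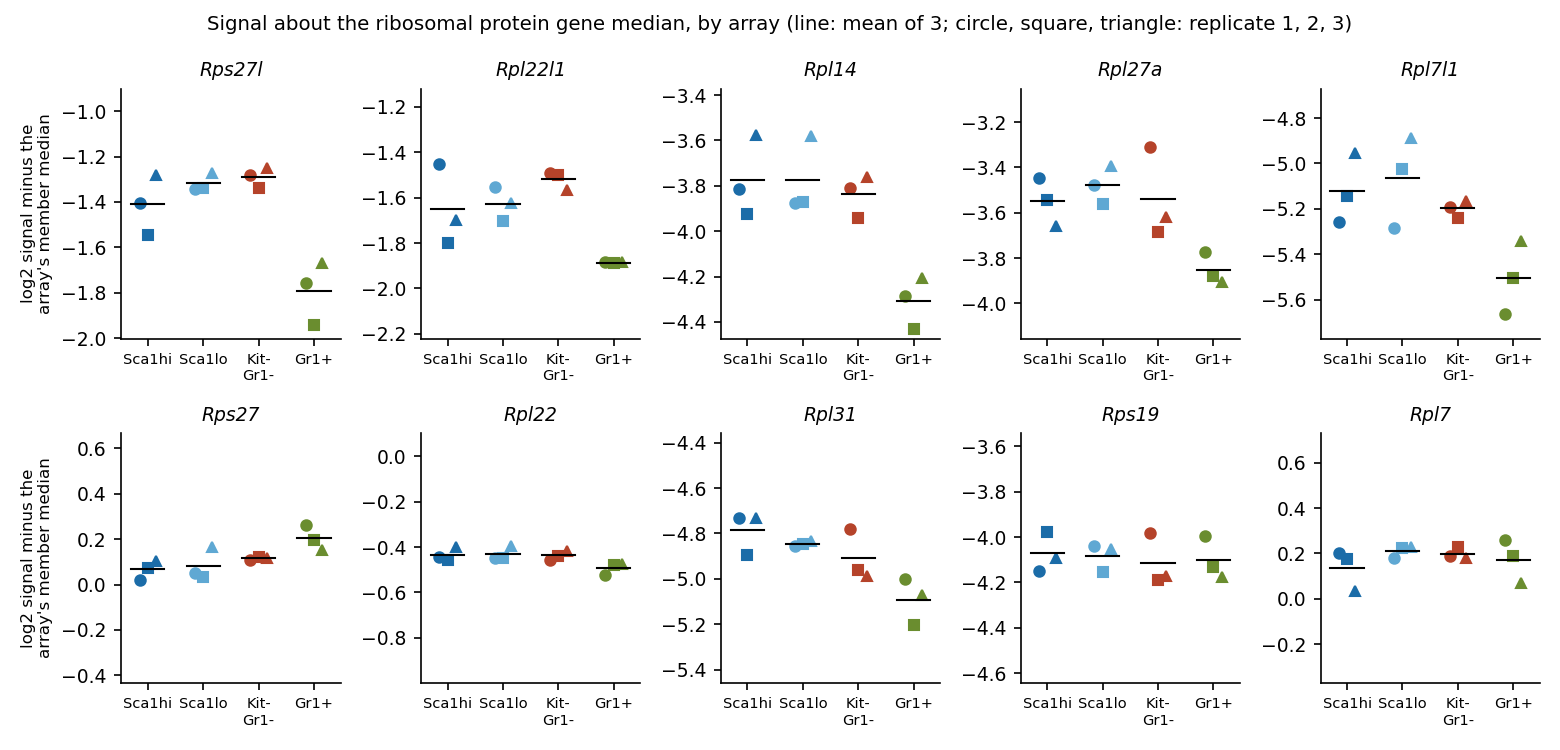
Log2 signal of 10 ribosomal protein genes on each sorted-fraction array relative to the array's median of the 83 genes; symbols are replicates 1 to 3 and lines are means, and each panel spans the same log2 range about its own mean. In Rps27l, Rpl22l1, Rpl14, Rpl27a and Rpl7l1 the 3 Gr1+ arrays lie below the 9 others, and in Rps19, Rpl7 and the brighter probe of Rpl22, which is the one plotted, the fractions lie close together.

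All 3 Gr1+ arrays lay below all 6 Kit+Gr1- arrays for 9 of the 83 genes on this scale (8.3% of all genes did so), and above them for none (5.42%). All 3 Kit-Gr1- arrays lay above the Gr1+ arrays for 10 genes (9.14% of all genes) and below them for 4 (16.6%). The 9 genes lower in Gr1+ cells and the 10 genes higher in Kit-Gr1- cells are 10.8% and 12% of the set, near the shares of all genes. At an unadjusted p under 0.05, 11 genes passed between Gr1+ and Kit+Gr1- cells (17.7% of all genes), 9 lower and 2 higher. Between Kit-Gr1- and Gr1+ cells 9 passed (14.4% of all genes), 7 higher and 2 lower. The genes higher in Gr1+ than in Kit+Gr1- cells were Rps27, with 0.13 ± 0.05 (limma, adjusted p = 0.162), and Rplp0.

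A paralogue and its parent can also be set against each other on the same array. A scaling that shifts all log2 signals of the array alike then cancels. Quantile normalization, cyclic loess and the compression of an array do not cancel in this way. The log2 signal of the parent was subtracted from that of the paralogue, and only the movement of this difference between fractions is read. For Rps27l minus Rps27 the Gr1+ arrays gave -2.02, -2.14 and -1.82, and the other 9 sorted arrays lay between -1.62 and -1.37. The Gr1+ mean differed from that of Kit+Gr1- cells by -0.56, where the SD within fractions was 0.11. The unfractionated arrays gave -1.38, on the strongly compressed replicate 1, and -1.80. These values carry no test, since the genes were chosen after their departure was seen.

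The other pairs moved less or varied more. For Rpl22l1 minus Rpl22 the Kit-Gr1- mean lay 0.31 above that of Gr1+ cells, and the Gr1+ mean differed from that of Kit+Gr1- cells by -0.19, with an SD within fractions of 0.10. This holds for the brighter Rpl22 probe alone: a dimmer one, with a mean log2 signal of 13.2, differed by -0.68 between Gr1+ and Kit+Gr1- cells relative to the set, and against it both pair differences changed sign, to -0.14 and 0.43. With the brighter probe the Gr1+ arrays lay at -1.36, -1.41 and -1.41, just below the lowest of the 9 others at -1.34. Rpl7l1 minus Rpl7 differed by -0.41 between Gr1+ and Kit+Gr1- cells with an SD of 0.20, and Gr1+ replicate 3 overlapped the other fractions. Against the other 2 probes of Rpl7 the difference was -0.28 and -0.27. Rpl36al minus Rpl36a differed by -0.08, with an SD of 0.08. Rpl39l minus Rpl39, for the testis-enriched paralogue of Rpl39, had an SD within fractions of 1.03, more than its difference of -0.24.

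**Figure D5:**
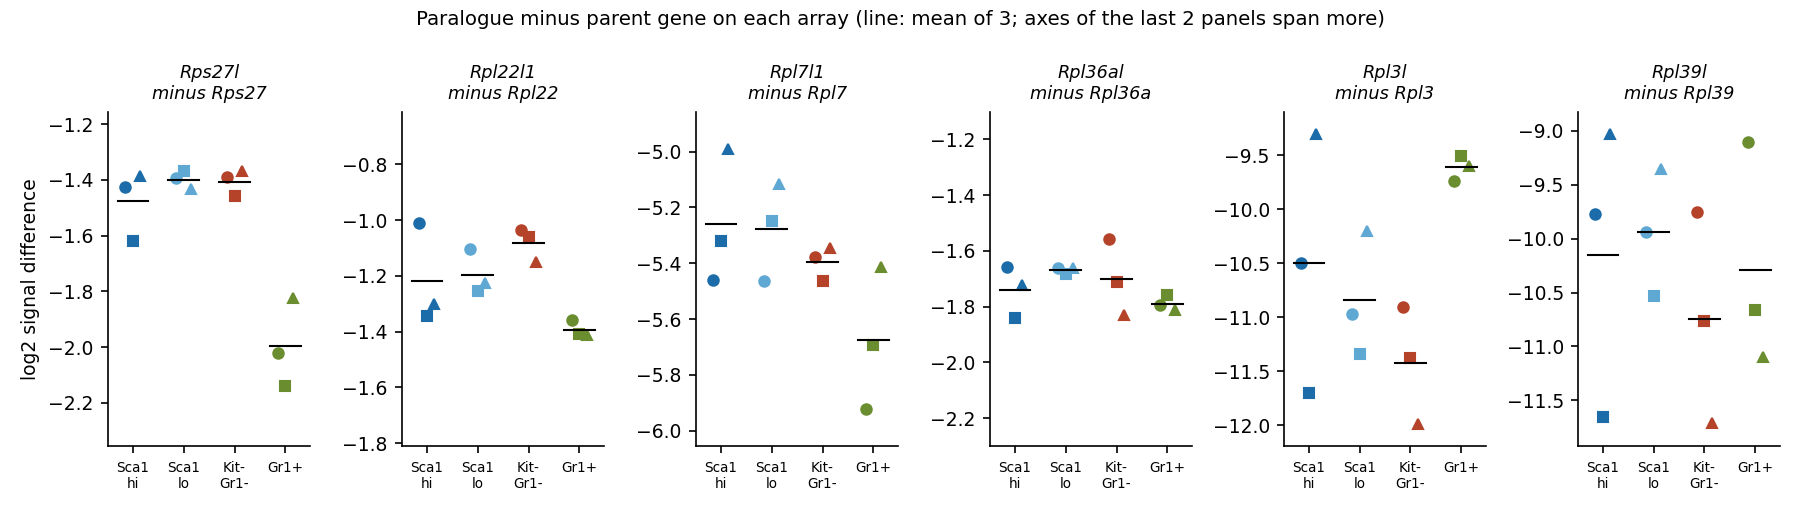
Log2 signal of 6 paralogues minus that of their parent gene on each sorted-fraction array; symbols are replicates 1 to 3 and lines are means. In Rps27l minus Rps27 the Gr1+ arrays, from -2.14 to -1.82, lie apart from the other 9, while the arrays of Rpl39l minus Rpl39 spread over more than the differences between fractions.

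Rpl3l, a paralogue of Rpl3 known from striated muscle, was the only gene of the set called at 2-fold on the main scale. It stood at -3.08, -3.89 and -2.55 in Sca1hi, -3.30, -3.67 and -2.92 in Sca1lo, -3.42, -3.78 and -4.24 in Kit-Gr1- and -2.36, -2.06 and -2.18 in Gr1+ cells, so that its signal lay below the 75th percentile on every array. Among the sorted arrays the Gr1+ arrays were above all others. The unfractionated arrays gave -1.93, on the strongly compressed replicate 1, and -2.87. Kit-Gr1- cells were 3.06-fold below Gr1+ cells (log2 difference -1.61 ± 0.40, limma, adjusted p = 0.0328), with -1.06, -1.72 and -2.07 within slides 1, 2 and 3. The call was lost in 7 of the 12 fits that left out an array: Sca1lo replicate 1 (adjusted p = 0.0577), Kit-Gr1- replicates 1 (0.0585), 2 (0.101) and 3 (0.162), and Gr1+ replicates 1 (0.0746), 2 (0.162) and 3 (0.0734). The call thus held in no fit that left out an array of the compared fractions. It was also lost after quantile normalization (-1.06, adjusted p = 0.15), without scaling (-1.65, 0.319) and relative to the set (-1.76, 0.157). The difference from Kit+Gr1- cells was 1.03 ± 0.35 (limma, adjusted p = 0.104), and it passed at 1.19 (adjusted p = 0.0179) without Sca1hi replicate 3 and at 1.34 (0.00597) with slide as a block. Relative to Rpl3 on the same array, Rpl3l was 1.06 higher in Gr1+ than in Kit+Gr1- cells, with an SD within fractions of 0.72. Its mean log2 signal was 6.84, the lowest of the set.

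Rpl21, a large-subunit gene, was the other gene with a small adjusted p on the main scale. It stood at -0.77, -0.74 and -0.78 in Sca1hi, -1.06, -0.97 and -1.04 in Sca1lo, -1.02, -1.24 and -0.80 in Kit-Gr1- and -1.67, -1.62 and -1.25 in Gr1+ cells. The Gr1+ arrays were below all 9 others. The difference from Kit+Gr1- cells was -0.62 ± 0.17 (1.54-fold lower, limma, adjusted p = 0.0469), and -0.75, -0.66 and -0.50 within slides. It failed in 9 of the 12 fits that left out an array, with adjusted p from 0.0616 to 0.259 in those, the highest without Gr1+ replicate 2. Relative to the set it was -0.68 with an adjusted p of 0.181. Its mean log2 signal was 8.88, and its probe alone stands for the gene.

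Of the 83 genes 53 had a single probe and 30 had 2 to 4, of which the brightest stood for the gene. Among the 30, the gap between the changes of the brightest and another probe had a median of 0.04, 0.07, 0.06 and 0.09 in the 4 comparisons. It was under 0.5 in 28, 26, 29 and 28 of them. Both probes of Rpl7l1 gave lower signals in Gr1+ than in Kit+Gr1- cells relative to the set, by -0.41 and -0.35, and so did those of Rpl31, by -0.28 and -0.26. Between Gr1+ and Kit+Gr1- cells Rps15a disagreed most, with 0.02 for the bright probe and -1.11 for one with a mean log2 signal of 7.25. Rps27l, Rpl14, Rpl22l1, Rpl27a, Rpl3l and Rpl21 rest on 1 probe each. Mouse ribosomal protein genes have many processed pseudogenes, and whether a probe also reads such copies was not tested.

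Some ribosome components have symbols of another form. Of 5 listed names 4 were measured. None was called in any of the 4 comparisons, where 0.346%, 4.33%, 4.1% and 0% of all genes were called. Their median differences were 0.22, 0.13, 0.08 and -0.07, in the order used above. Relative to the set, Fau, which encodes a small-subunit protein fused to a ubiquitin-like domain, was higher in Gr1+ than in Kit+Gr1- cells by 0.22 ± 0.05 (limma, adjusted p = 0.0105).

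Translation genes with TOP messages form a second list. Of 19 measured, 1 fell at least 2-fold in Gr1+ cells against Kit+Gr1- cells (1.29% of all genes), the histone chaperone gene Nap1l1, by 1.43 ± 0.23 on the log2 scale (limma, adjusted p = 0.00174), and it rose by 1.34 ± 0.27 from Gr1+ to Kit-Gr1- cells (adjusted p = 0.00975). The list's medians in the 4 comparisons were 0.25, 0.05, 0.21 and -0.19. Relative to the ribosomal protein genes 5 of the 19 were lower and 2 higher in Gr1+ than in Kit+Gr1- cells at any size (5.82% and 4.8% of all genes), and 3 were higher in Kit-Gr1- than in Gr1+ cells (3.22%). Eef1a1, the elongation factor that brings aminoacyl-tRNA to the ribosome, differed by 0.07 ± 0.28 between Gr1+ and Kit+Gr1- cells.

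Genes that build ribosomes include nucleolar processing factors and snoRNA proteins. Of 37 measured assembly and nucleolar genes, 4 fell at least 2-fold in Gr1+ against Kit+Gr1- cells (1.29% of all genes) and none rose, and with no limit on size 17 were lower at an adjusted p under 0.05 (3.22% of all genes). Their median difference was -0.62, beside 0.06 for the ribosomal protein genes and -0.04 for all genes. The RNA helicase gene Ddx21 fell by 1.17 ± 0.19 (limma, adjusted p = 0.00153), Nolc1 by 1.13 ± 0.20 (0.00286), Nop58, of the box C/D snoRNA particles, by 1.07 ± 0.22 (0.00942) and Tcof1, which acts in ribosomal RNA transcription, by 1.05 ± 0.19 (0.0039). From Gr1+ to Kit-Gr1- cells 6 rose at least 2-fold (1.65% of all genes) and none fell, 13 were higher with no limit on size (2.7% of all genes), and the median was 0.75. Relative to the ribosomal protein genes 5 fell at least 2-fold and 27 were lower at any size in Gr1+ against Kit+Gr1- cells (1.41% and 5.82% of all genes). From Gr1+ to Kit-Gr1- cells 3 rose at least 2-fold and 15 were higher at any size (1.03% and 3.22% of all genes). On the main scale none of the 37 passed between Kit-Gr1- and Kit+Gr1- cells or between Sca1hi and Sca1lo cells. At an adjusted p under 0.05, 0.378% and 0% of all genes passed there. The difference between this list and the ribosomal protein genes was not tested.

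Mitochondrial ribosomal protein genes encode the ribosome of the organelle. None of 76 was called in the 4 comparisons on the main scale, where 0.346%, 4.33%, 4.1% and 0% of all genes were called. With no limit on size 3 were lower in Gr1+ than in Kit+Gr1- cells (3.22% of all genes): Mrps6 by -0.99 ± 0.21 (limma, adjusted p = 0.0105), Mrpl38 by -0.75 ± 0.18 (0.0229) and Mrpl47 by -0.67 ± 0.17 (0.0322). In Kit-Gr1- cells 7 were higher than in Gr1+ cells (2.7% of all genes). Relative to the ribosomal protein genes the counts were larger, with 23 lower and 1 higher in Gr1+ than in Kit+Gr1- cells (5.82% and 4.8% of all genes). Of the lower, 1 was so by at least 2-fold (1.41% of all genes), and 16 were higher in Kit-Gr1- than in Gr1+ cells (3.22%). The list's medians in the 4 comparisons were 0.19, -0.24, 0.44 and -0.30.

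Among 19 measured regulators of ribosomal protein synthesis, Mycn, a MYC family factor, had the largest difference that passed. Against Kit+Gr1- cells it fell in Gr1+ cells by 2.50 ± 0.27 on the log2 scale (limma, adjusted p = 8.27e-05), from between 0.86 and 1.49 on the 6 Kit+Gr1- arrays to -0.58, -1.96 and -1.05. Rps6ka1, an S6 kinase of the RSK family, rose by 1.31 ± 0.29 (adjusted p = 0.0124), and Gabpb1, a subunit of an ETS factor, was lower by -0.77 ± 0.18 (adjusted p = 0.0189). From Gr1+ to Kit-Gr1- cells Mycn rose by 2.54 ± 0.31 (adjusted p = 0.000267). Myc differed by -0.41 ± 0.24 between Gr1+ and Kit+Gr1- cells (adjusted p = 0.523). No regulator passed in the other 2 comparisons, Kit-Gr1- minus Kit+Gr1- and Sca1hi minus Sca1lo, where 0.378% and 0% of all genes did.

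Markers of mature cells moved with the fractions, and their part in the results above was not tested. Against Kit+Gr1- cells, 0.282% of all genes were called higher in Kit-Gr1- cells. In Gr1+ cells 3.04% were called higher and 1.29% lower. Of 9 measured erythroid markers, 5 rose in Kit-Gr1- against Kit+Gr1- cells, and their summed level (log2, relative to the 75th percentile) was 4.71 to 5.59 in Kit-Gr1-, 1.47 to 2.58 in Kit+Gr1- and 1.62 to 2.25 in Gr1+ cells. All 10 neutrophil granule markers rose in Gr1+ against Kit+Gr1- cells, with summed levels of 10.5 to 11.0 against 6.69 to 8.51, and 6.06 to 7.97 in Kit-Gr1- cells. Of 5 eosinophil markers 4 rose in Gr1+ cells, with 6.76 to 8.15 against -0.23 to 1.85. Of 7 mast cell and basophil markers 6 rose in Gr1+ cells, with 7.44 to 8.43 against 4.43 to 6.52, and 1 rose in Kit-Gr1- cells, with 5.86 to 7.55. Of 5 megakaryocyte markers 3 rose in Kit-Gr1- cells, with 5.83 to 6.73 against 4.02 to 5.37, and in Gr1+ cells 1 rose and 1 fell. None of 6 lymphoid markers was called in any of the 4 comparisons (0.346%, 4.33%, 4.1% and 0% of all genes were).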

How the data were processed

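The authors' software, per the file headers, was Feature Extraction 10.1.1.1 from Agilent, set for 1 colour and for combining scans at 2 gains. The processed intensity of each spot in the deposited files is background-subtracted within its array. They also hold the deposited raw spot and local background intensities. The deposited series values are log2 of the same processed intensities (largest difference 5e-09), neither scaled between arrays nor centred. The array design names build mm8, so the GRCm38.p6 gene table was used for symbols, and the promoter windows were read from that build's promoter table.

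Control spots and outlier spots were left out and spots of a probe averaged. Probes entered the fit when 3 or more sorted arrays had them well above background (38888 of 41174 probes), and the brightest kept probe stood for its gene (31254 genes, 16260 with a symbol). The log2 signal minus each array's 75th percentile was fitted in R 4.3.3 with limma 3.58.1 (lmFit, eBayes with trend) over the 4 sorted groups with no covariates (8 residual degrees of freedom, prior 4.89), and tests were two-sided with Benjamini-Hochberg adjustment over all genes. Unfractionated arrays entered no comparison. The script was tested on simulated data. Tables used pandas 2.3.3 and numpy 2.4.6 under Python 3.11.15, and plots used matplotlib 3.10.9. Arrays carry no read depth, so the 3 arrays per fraction limit the precision.

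The members, lists and tests were chosen with earlier results of these data known. Named were genes that were called, those with an adjusted p under 0.05, the 5 highest and 5 lowest per comparison, the paralogues with their parents, the P stalk genes, Rps6, Rpl5, Rpl11, Rps19, Rps27a and Rps19bp1. The values of some genes under this rule are not reported here. The scale relative to the median of the 83 genes, the 95th percentile and cyclic loess were added after the data were seen. The other alternatives were the array median, quantile normalization, no scaling, normexp background correction (offset 50), other probe filters and choices, slide or replicate number as a block, all 14 arrays, array weights and leaving out arrays. Slides, which match the scan times, hold several groups each, so the values within slides are given. Replicate numbers were not treated as pairs, since no label ties them and not every pair was alike: over 18 pairs of arrays with the same number, the correlation of their deviations from the group means ran from -0.30 to 0.85.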

Additional observations from a re-analysis of the deposited data

How the results depend on the processing

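No result that passed a threshold passed it in the opposite direction under an alternative run, but the median of the set took both signs in every comparison. Over 16 settings it ran from -0.06 to 0.53, -0.19 to 0.08, -0.10 to 0.46 and -0.28 to 0.11 in the 4 comparisons. The median of the ribosomal protein genes between Kit-Gr1- and Kit+Gr1- cells moved to 0.53 with the array median, and over 16 settings it was above 0 in 11, with 10, 15 and 5 for Gr1+ minus Kit+Gr1-, Kit-Gr1- minus Gr1+ and Sca1hi minus Sca1lo cells. Leaving out each array in turn, the 4 medians ran from 0.05 to 0.34, -0.11 to 0.19, 0.06 to 0.28 and -0.40 to 0.16. Rpl3l became the 1 gene called between Gr1+ and Kit+Gr1- cells with the array median, slide as a block, array weights, cyclic loess, without the 3 compressed arrays and, among fits leaving out an array (0 to 1 called), without Sca1hi replicate 3. Its call between Kit-Gr1- and Gr1+ cells dropped to 0 with quantile normalization, no scaling, all 14 arrays, the 95th percentile and the scale relative to the set, and leaving out an array gave 0 to 1. Counts of genes apart from the set moved most. The shares of all genes under these settings are not reported here, so the counts are not read as a result about the set. Array weights were uneven, from 0.10 for Sca1hi replicate 3 to 5.80 for Kit-Gr1- replicate 2. Between Kit-Gr1- and Kit+Gr1- cells 0 became 20 with array weights. Between Gr1+ and Kit+Gr1- cells 4 became 2 without the compressed arrays, 11 with array weights, 2 with the mean of a gene's probes and 1 with all 14 arrays, and 2 to 3 leaving out an array. Between Kit-Gr1- and Gr1+ cells 3 became 6 with slide as a block, 5 with array weights, 1 with the mean of a gene's probes and 1 with all 14 arrays, and 1 to 4 leaving out an array. Where a value changed, the cause was not tested.

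With the replicate number as a block the calls were 0, 0, 1 and 0, as without it. The medians stayed at 0.21, 0.06, 0.15 and -0.14. Each fraction holds each replicate number once, so this block can hardly move them. With this block 0, 6, 4 and 0 genes stood apart from the set, and the shares of all genes are not reported here. Of the 12 sorted arrays 10 correlated best with an array of the same number, a hint from the data alone. Arrays of the same number mostly shared a slide, and the highest correlation was 0.85 for same-number and for same-slide pairs. Number and slide overlap in part: Sca1hi replicate 2 was on slide 3, and the replicate 3 arrays were split over slides 3 and 4. Which of them the correlations follow was not tested. With 3 arrays per fraction and an SD of 0.32 between array medians (0.18 without Sca1hi replicate 3, whose omission also moves the medians), shifts of the whole set of the size seen here were within the spread of the arrays. Dim genes such as Rpl3l and Rpl39l, with mean log2 signals of 6.84, carry the largest spread.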
